A study of Mus musculus with 12 samples.

Results

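The phosphate transport and Klotho to FGF23 axis was followed in sorted mouse kidney tubules through 9 genes. They were the sodium phosphate cotransporters Slc34a1, Slc34a2, Slc34a3, Slc20a1 and Slc20a2, the co-receptor gene Kl, the receptor gene Fgfr1, and the scaffold genes Pdzk1 and Slc9a3r1. A probe belonged to the set where the gene name in the scanner files equalled one of these names and the spot was not a control. This gave 16 probes of 41174 on the array, which carried 27597 gene names, and each probe was kept separate. Of the 16 probes, 14 probes of 8 genes passed the filter on dim probes and were tested, among 25829 tested probes in all. The remaining 2 were the probes of Slc34a2.

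The study measured gene expression on Agilent one-colour arrays in 12 samples, 3 fractions of renal tubules from each of 4 mice. EGFP+ tubules are the fluorescent distal convoluted tubules (DCT, the nephron segment that follows the thick ascending limb). ALL is the total fraction and EGFP- the fraction without fluorescence, and a COPAS large-particle sorter collected all 3 from a tubule suspension. Mice 2 and 4 were male and mice 1 and 3 female, and no treatment is recorded. The labels used here name no age, no strain and no promoter or allele behind the EGFP signal. A level is the log2 processed signal minus the 75th percentile of its array, so 0 is the upper quartile of that array. The level of one probe cannot be set against that of another.

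Inorganic phosphate filtered at the glomerulus is taken back mainly in the proximal tubule, through the apical cotransporters encoded by Slc34a1 (NaPi-2a) and Slc34a3 (NaPi-2c). The PDZ proteins PDZK1 and NHERF1, the product of Slc9a3r1, tether NaPi-2a in the brush border. FGF23, a hormone from bone, and parathyroid hormone lower this reabsorption. FGF23 binds a complex of an FGF receptor, chiefly FGFR1, with the co-receptor Klotho, and Klotho protein is known to be abundant in the distal convoluted tubule.

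The probe sequences behind the main results are shown because each probe reads a stretch of 60 bases and not the whole transcript. Positions are those of the mm8 mouse genome in the file headers, and an annotation of that build was not used here, so exon or UTR positions are not stated. Among the member probes, those of Slc34a1, Slc34a3 and Pdzk1 had the largest deficits in EGFP+ tubules. Slc34a1 lies at chr13:55423462-55423520, Slc34a3 at chr2:25050927-25050986 on the minus strand, and Pdzk1 at chr3:96955731-96955790.
Slc34a1 A_51_P498442: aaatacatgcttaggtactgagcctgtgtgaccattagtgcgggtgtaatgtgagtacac
Slc34a3 A_51_P230734: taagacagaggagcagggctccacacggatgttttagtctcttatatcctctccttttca
Pdzk1 A_51_P261737: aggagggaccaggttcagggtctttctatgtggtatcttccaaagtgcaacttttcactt

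Kl had a pair of probes that the files assign to different transcripts. A_52_P439358, at chr5:151261516-151261575, is listed for the klotho mRNA, and A_52_P112159, at chr5:151255290-151255349, for the mRNA of a secreted Klotho isoform. They lie 6226 bases apart on the plus strand.
Kl A_52_P439358: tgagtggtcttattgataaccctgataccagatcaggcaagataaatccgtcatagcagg
Kl A_52_P112159: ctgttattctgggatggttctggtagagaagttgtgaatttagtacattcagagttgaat

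Fgfr1 had 4 probes, and a pair of them, A_51_P109469 at chr8:27039115-27039174 and A_52_P668810 at chr8:27039136-27039195, share 39 bases. The capital letter marks the only mismatch in the shared stretch, G36A, counted from 1 at the 5′ end of A_52_P668810, whose base comes first. This pair therefore reads the same stretch of transcript and is not independent.
Fgfr1 A_52_P668810: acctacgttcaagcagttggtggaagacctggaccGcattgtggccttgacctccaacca
Fgfr1 A_51_P109469: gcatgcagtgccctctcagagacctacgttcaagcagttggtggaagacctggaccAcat
The others, A_52_P136162 at chr8:27035238-27035297 and A_52_P552062 at chr8:26997829-26997888, lie 3898 and 41307 bases from A_52_P668810.

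In EGFP+ tubules the members moved in both directions. Both Kl probes and all 4 Fgfr1 probes were higher than in EGFP- tubules, while the renal type II cotransporters Slc34a1 and Slc34a3 and the scaffolds Pdzk1 and Slc9a3r1 were lower. The 4 probes of Slc20a1 and Slc20a2 did not pass the threshold. Between EGFP+ and EGFP- tubules 6 of 14 tested probes were higher, where 32.8% of all tested probes were, and 4 of 14 were lower, where 23.9% were (limma, Benjamini-Hochberg adjusted p under 0.05). The median over the 14 probes was 0.04, against 0.14 over all tested probes. Differences were this common on the array as a whole, so the number of member probes that passed is not by itself a result about them. The groups did not overlap for these 10 probes, 6 higher and 4 lower, and this held for 31.1% and 23.4% of all tested probes. Against ALL the counts were also 6 higher and 4 lower, with 31.1% and 22.9% of all tested probes, and again without overlap (29.3% and 21.8% of all tested probes). These comparisons share the EGFP+ arrays. Between ALL and EGFP- tubules 0 of 14 member probes passed in limma, 1 had an unadjusted p under 0.05, and 1.08% of all tested probes passed.

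**Figure D1:**
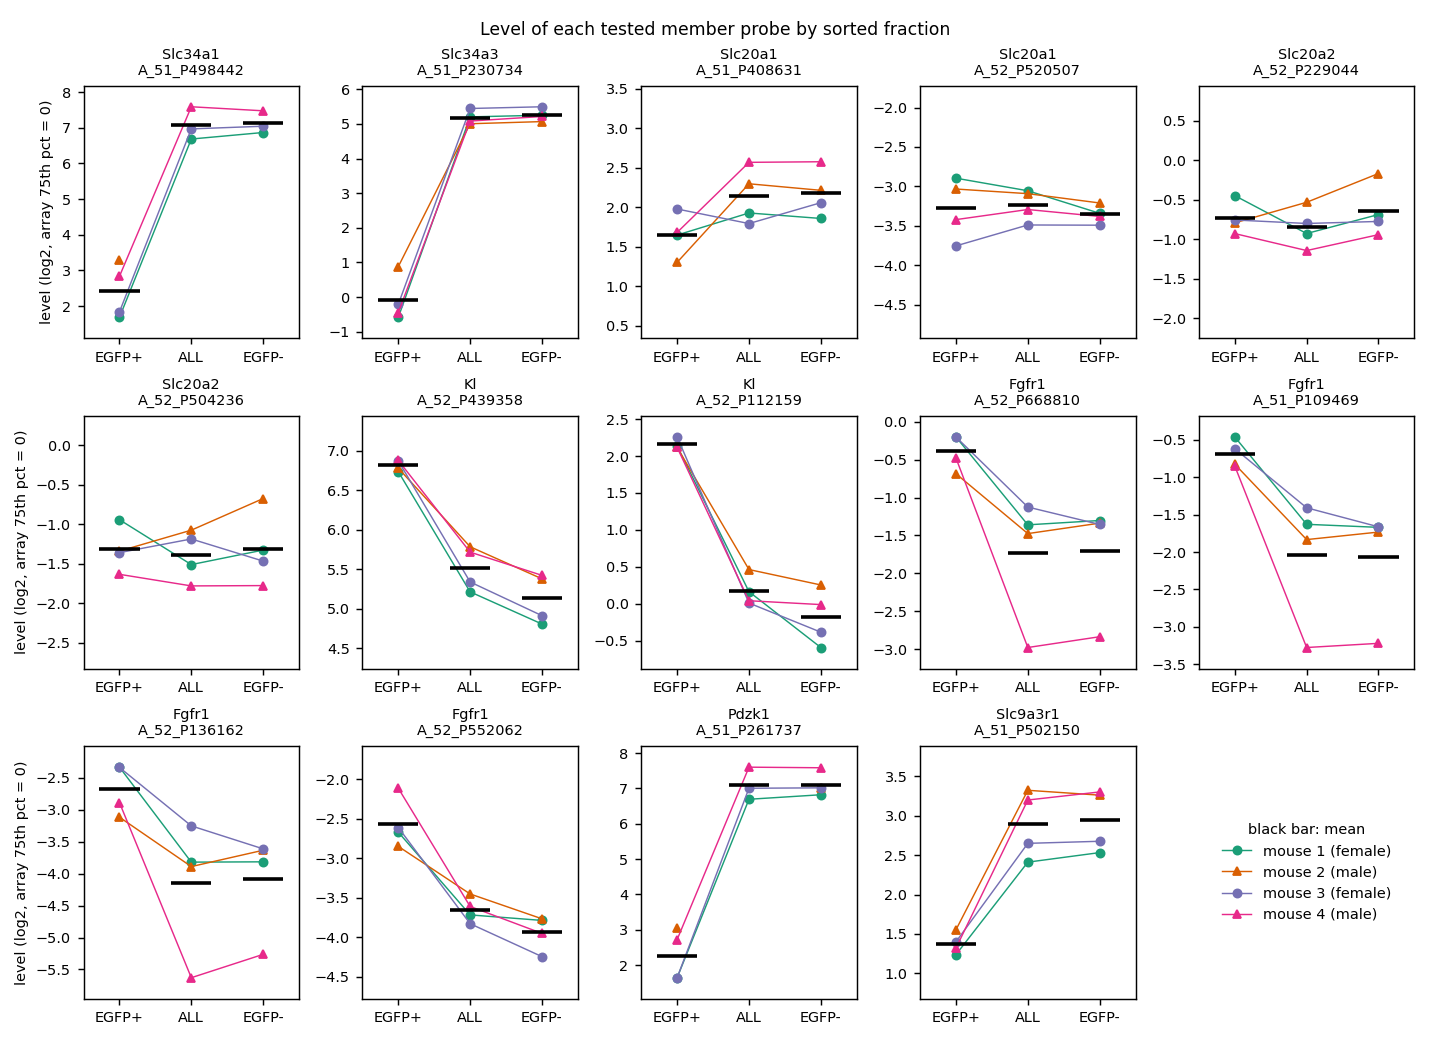
Level of each tested member probe (log2, array 75th percentile at 0; each panel has its own vertical axis) in EGFP+, ALL and EGFP- tubules, with 1 line per mouse, triangles for males, circles for females and black bars for means. A missing point is a spot with an outlier mark. Slc34a1, Slc34a3, Pdzk1 and Slc9a3r1 are lower in EGFP+ tubules, both Kl and all 4 Fgfr1 probes are higher, and 3 Fgfr1 probes are low in the ALL and EGFP- tubules of mouse 4.

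The arrays bear on every value. Upper quartiles of the processed signal lay between 922 and 2270, and the dimmest arrays were ALL and EGFP- of mouse 4. Of 5 distal convoluted tubule markers, 5 were higher in EGFP+ than in EGFP- tubules, with a median of 8.08. Of 8 proximal tubule markers, 8 were lower, with a median of -5.35. All 3 markers of the late distal convoluted and connecting tubule were higher, with a median of 3.20: Calb1 9.18-fold, Slc8a1 16-fold and Trpv5 7.94-fold. They moved the same way as Kl and Fgfr1, and their part in those differences was not tested. Thick ascending limb markers gave 4 higher and 1 lower. The log2 differences from EGFP- were 0.75 for Slc12a1, 1.58 for Cldn16, 1.85 for Ptger3 and 1.93 for Umod, against -5.05 for Cldn10. The 4 higher ones also moved the same way as Kl and Fgfr1, and the part of this segment in the Kl and Fgfr1 differences was not tested. Collecting duct markers gave 1 higher, 5 lower and 1 not past the threshold. All 6 podocyte and all 6 endothelial markers were lower. Of the stromal markers 3 were lower and 1 did not pass, and of the leukocyte markers 4 were lower and 1 did not pass. The 12 arrays lay on 3 slides of 4, and slides 1 and 2 each split mouse 2, slides 2 and 3 mouse 3. With slide as a block every call of the members against EGFP- and against ALL was the same. Each array holds RNA from many tubules, so fewer cells of a type and less RNA per cell cannot be told apart.

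Slc34a1, the main phosphate cotransporter of the proximal brush border, had levels of 1.68, 3.29, 1.84 and 2.84 in EGFP+ tubules of mice 1 to 4. In EGFP- tubules it had 6.87, 7.04 and 7.48 in mice 1, 3 and 4. In ALL tubules of the same 3 mice it had 6.69, 6.97 and 7.59. Every EGFP+ value lay below every ALL and EGFP- value, and EGFP+ tubules of the male mice 2 and 4 were above those of the females. The spots of mouse 2 in ALL and EGFP- had an outlier mark and do not enter, so these means rest on 3 mice. EGFP+ minus EGFP- was -4.72 ± 0.40 (SE), 26.3-fold lower (adjusted p = 4.55e-06). The deficit against ALL was as clear, with a difference of -4.67 ± 0.40 (adjusted p = 6.05e-06). Within slides 1 and 3 it was -4.38 and -4.43 against EGFP-.

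Slc34a3, the second renal type II cotransporter, had levels of -0.58, 0.88, -0.21 and -0.44 in EGFP+ tubules, against 5.25, 5.07, 5.50 and 5.21 in EGFP- tubules of mice 1 to 4. In ALL tubules the levels were 5.20, 5.01, 5.45 and 5.08. The EGFP+ arrays again stood below all others, with mouse 2 the highest among them. The difference from EGFP- was -5.35 ± 0.27, 40.7-fold lower (adjusted p = 1.58e-08), and from ALL -5.27 ± 0.27 (adjusted p = 3.02e-08). Within slides 1, 2 and 3 it was -5.10, -5.27 and -5.80 against EGFP-. A slide holds fractions of different mice and sexes, so such a difference also mixes mice.

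Slc34a2 encodes the type II cotransporter NaPi-2b, known from intestine and lung. Its probe A_52_P255099, at chr5:53357996-53358055, was well above background on 0 of 4 EGFP+, 2 of 4 ALL and 1 of 4 EGFP- arrays. A_51_P221256, at chr5:53359130-53359189, was well above background on 0 of 12 arrays. Neither probe was tested, and no fold is given.

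Slc20a1 encodes the type III cotransporter PiT-1, a broadly expressed phosphate carrier. Its brighter probe A_51_P408631, at chr2:128902835-128902894, had levels of 1.65, 1.30, 1.98 and 1.68 in EGFP+ tubules and 1.86, 2.21, 2.06 and 2.58 in EGFP- tubules. EGFP+ was the lower in each mouse, by little in the females and by more in the males, and the groups overlapped. The difference was -0.52 ± 0.21, 1.44-fold lower (95% confidence interval -0.99 to -0.06), and it missed the threshold with an adjusted p of 0.0522. With the mouse as a block the same difference passed, at an adjusted p of 0.0361, and over all alternatives the adjusted p ran from 0.0160 to 0.257. Against ALL the difference was -0.49 ± 0.21 (adjusted p = 0.0675, or 0.0467 with the mouse as a block).

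The second Slc20a1 probe, A_52_P520507, lies 12521 bases away at chr2:128890314-128890373. It averaged -3.27 ± 0.39 in EGFP+, against -3.23 ± 0.20 in ALL and -3.35 ± 0.12 in EGFP- (SD, n = 4). EGFP+ minus EGFP- was 0.08, with a 95% confidence interval from -0.32 to 0.48 (adjusted p = 0.731 in limma). Between the probes of Slc20a1, the direction of this small difference was not the same.

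Slc20a2 encodes PiT-2, the other type III cotransporter. A_52_P229044, at chr8:24034167-24034226, had levels from -0.93 to -0.45 in EGFP+ and from -0.94 to -0.17 in EGFP- tubules. A_52_P504236, at chr8:24029575-24029634, ranged from -1.63 to -0.94 in EGFP+ and from -1.78 to -0.67 in EGFP- tubules. The groups overlapped at both probes, and mouse 2 was highest in EGFP-. The differences were -0.09 (95% confidence interval -0.50 to 0.32) and -0.01 (-0.54 to 0.52). A p that misses the threshold does not show equal levels, but these intervals exclude a difference as large as those of Slc34a1 and Slc34a3.

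Pdzk1, the brush border scaffold with several PDZ domains, had levels of 1.64, 3.05, 1.64 and 2.72 in EGFP+ tubules of mice 1 to 4, against 6.82, 7.01, 7.02 and 7.59 in EGFP- tubules. In ALL tubules it had 6.69, 7.01 and 7.60 in mice 1, 3 and 4, and the marked spot of mouse 2 was left out. EGFP+ was below the other fractions in every mouse with a value. EGFP+ minus EGFP- was -4.85 ± 0.35, 28.8-fold lower (adjusted p = 5.55e-07), and EGFP+ minus ALL -4.84 ± 0.37 (adjusted p = 1.32e-06). Within slides 1, 2 and 3 the difference from EGFP- was -4.48, -5.37 and -4.58.

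Slc9a3r1, which encodes the scaffold NHERF1 (probe at chr11:114996909-114996968), had levels of 1.24, 1.55, 1.40 and 1.32 in EGFP+ tubules. In EGFP- tubules they were 2.53, 3.26, 2.67 and 3.30, and in ALL tubules 2.41, 3.32, 2.65 and 3.20. EGFP+ stood below the other fractions, which overlapped each other, and in ALL and EGFP- the males were above the females. The difference from EGFP- was -1.56 ± 0.23, 2.95-fold lower (adjusted p = 0.000120), and from ALL -1.51 ± 0.23 (adjusted p = 0.000175). Within slides it was -1.13, -1.86 and -1.66 against EGFP-.

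The 4 lower genes retained different shares of their EGFP- signal. Slc34a1 in EGFP+ tubules was 2.75%, 2.71% and 4.01% of the EGFP- signal in mice 1, 3 and 4. For Slc34a3 the shares were 1.75%, 5.49%, 1.92% and 1.98% in mice 1 to 4. Pdzk1 kept 2.76%, 6.42%, 2.41% and 3.43%. The share was highest in mouse 2 for Slc34a3 and Pdzk1. Slc9a3r1 kept 40.8%, 30.7%, 41.4% and 25.4%, more than the other 3 genes in each mouse, with the males below the females. The summed signal of 5 proximal tubule markers with a value on every array was 1.75%, 4.55%, 2.14% and 3.15% of the EGFP- sum in mice 1 to 4. These sums ran from 1.81 to 4.77 in EGFP+, from 82.2 to 104.7 in ALL and from 93.9 to 113.9 in EGFP- tubules, in units of each array's 75th percentile. The proximal marker shares lay in the range of Slc34a1, Slc34a3 and Pdzk1 and far below those of Slc9a3r1. Sums of other marker lists lay near the Slc9a3r1 shares. Collecting duct markers had 29.6%, 40.2%, 37.4% and 38.1% in mice 1 to 4, and smooth muscle and stroma markers 33.4%, 29.7%, 30.5% and 34.7%. Podocyte, endothelial and leukocyte sums were lower, from 1.27% to 13.1%. The part of other cell types in these differences was not tested.

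**Figure D2:**
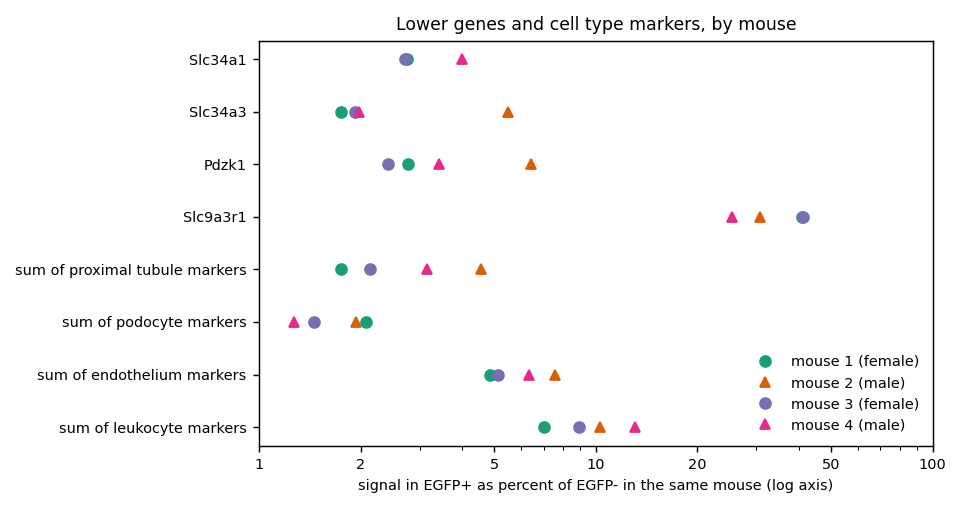
Signal in EGFP+ as a percent of EGFP- tubules of the same mouse (log axis), for the lower member genes and for the summed markers of other cell types, with triangles for males and circles for females. Slc34a1, Slc34a3, Pdzk1 and the proximal tubule markers lie between 1.75% and 6.42%, and Slc9a3r1 between 25.4% and 41.4%; Slc34a1 has no point for mouse 2.

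Kl, which encodes the FGF23 co-receptor Klotho, was higher in EGFP+ tubules by both probes. The klotho mRNA probe A_52_P439358 had levels of 6.73, 6.78, 6.87 and 6.88 in EGFP+, 5.21, 5.78, 5.34 and 5.72 in ALL, and 4.80, 5.38, 4.91 and 5.42 in EGFP- tubules. All EGFP+ values stood above all others and lay within a narrow range (SD 0.07), while ALL and EGFP- overlapped. EGFP+ minus EGFP- was 1.69 ± 0.17, 3.22-fold higher (adjusted p = 5.72e-06), and EGFP+ minus ALL 1.30 ± 0.17, 2.47-fold (adjusted p = 5.86e-05). Within slides 1, 2 and 3 it was 1.95, 1.49 and 1.71 against EGFP-. ALL was above EGFP- in 4 of 4 mice, by 0.38 ± 0.17, which did not pass in limma although its unadjusted p was the only one under 0.05 among the members.

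The Kl probe listed for the secreted isoform had levels of 2.13, 2.12, 2.26 and 2.12 in EGFP+, 0.16, 0.46, 0.01 and 0.04 in ALL, and -0.59, 0.25, -0.38 and -0.01 in EGFP- tubules. EGFP+ again stood above the other fractions in each mouse. The difference from EGFP- was 2.34 ± 0.18, 5.06-fold higher (adjusted p = 3.95e-07), and from ALL 1.99 ± 0.18, 3.96-fold (adjusted p = 2.01e-06). Within slides it was 2.72, 2.0 and 2.32 against EGFP-.

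The measured excess was larger at the isoform probe than at the klotho mRNA probe. The level of A_52_P439358 minus that of A_52_P112159 was 4.66 ± 0.07 in EGFP+ and 5.31 ± 0.14 in EGFP- tubules (SD, n = 4), without overlap. The difference between fractions, -0.65 or 1.57-fold, had a two-sided exact permutation p of 0.0286. That is the smallest that 4 against 4 arrays taken as unpaired can give. The fractions came from the same mice, and this pairing did not enter the permutation. Adjusted over the 9 probe pairs of 1 gene compared in this way the p was 0.257, which a lone pair at the smallest p cannot go below, so no call is made either way. Whether A_52_P112159 measures only the isoform was not tested.

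Fgfr1, the receptor that Klotho joins to bind FGF23, was higher in EGFP+ tubules at all 4 probes. A_52_P668810 had levels of -0.20, -0.69, -0.20 and -0.48 in EGFP+, -1.36, -1.48, -1.13 and -2.98 in ALL, and -1.30, -1.34, -1.35 and -2.84 in EGFP- tubules. EGFP+ values were above all others, and ALL and EGFP- of mouse 4 lay far below those of the other mice. The difference from EGFP- was 1.32 ± 0.42, 2.49-fold higher (adjusted p = 0.0197). The overlapping probe A_51_P109469, the mean of up to 10 spots per array, gave 1.38 ± 0.43 (adjusted p = 0.0155). A_52_P136162 gave 1.41 ± 0.50 (adjusted p = 0.0298), with 3 of 4 EGFP- and 3 of 4 ALL arrays well above background.

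The probe farthest from these, A_52_P552062, had levels of -2.67, -2.85, -2.61 and -2.11 in EGFP+, -3.72, -3.45, -3.83 and -3.61 in ALL, and -3.79, -3.77, -4.24 and -3.95 in EGFP- tubules. Mouse 4 did not stand apart here in ALL or EGFP-. The difference from EGFP- was 1.38 ± 0.17, 2.60-fold higher (adjusted p = 2.68e-05). Against ALL the 4 probes differed by 1.34, 1.35, 1.48 and 1.09, in the order A_52_P668810, A_51_P109469, A_52_P136162 and A_52_P552062. Their adjusted p against ALL ran from 0.000202 to 0.0253 in limma.

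The calls of the 3 Fgfr1 probes that were low in mouse 4 depended on which mice were included. Without mouse 4 the differences from EGFP- were 0.97, 1.05 and 1.09 for A_52_P668810, A_51_P109469 and A_52_P136162, with adjusted p of 0.000990, 0.000323 and 0.00559. Without mouse 1 the adjusted p were 0.0612, 0.0528 and 0.107, so none of the 3 passed. Without mouse 2, A_51_P109469 and A_52_P136162 had 0.0502 and 0.0544. Without mouse 3, A_52_P668810 and A_52_P136162 had 0.0572 and 0.0646. Against ALL the adjusted p of the 3 probes were 0.0608, 0.0593 and 0.0922 without mouse 1, and 0.0503, 0.0631 and 0.0566 without mouse 2, so these calls were lost too. Within slide 3, which holds the mouse 4 arrays, the same 3 probes differed from ALL by 2.50, 2.43 and 2.74, against 0.92, 0.99 and 1.09 within slide 1. With normexp background correction A_52_P136162 and A_52_P552062 lost their calls against ALL, with differences of 0.65 and 0.49 (adjusted p = 0.167 and 0.335).

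**Figure D3:**
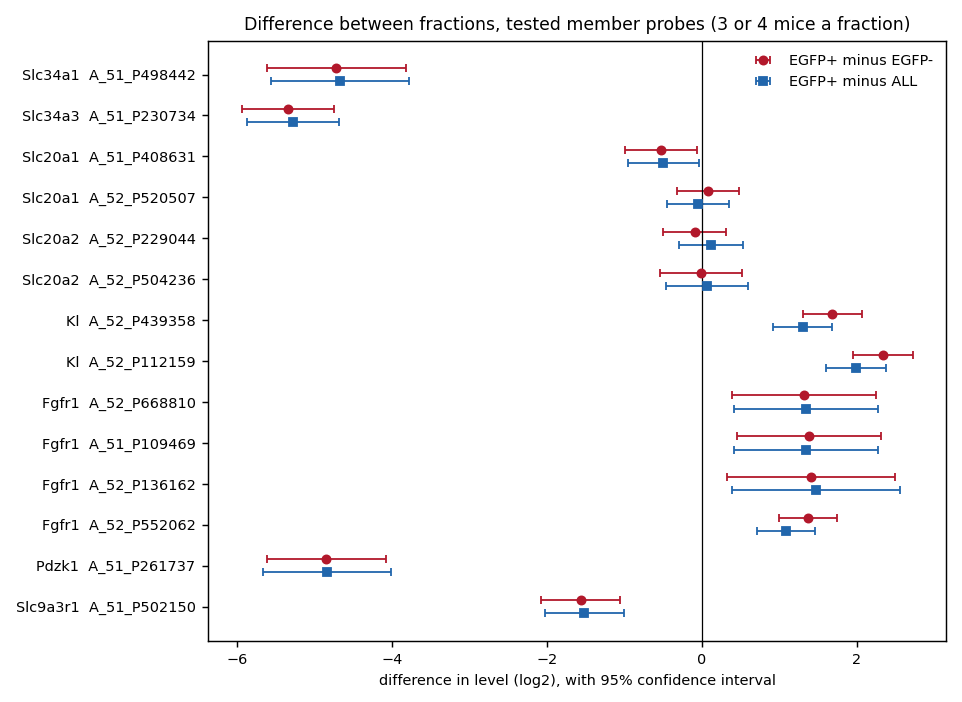
Difference in level (log2) for EGFP+ minus EGFP- (circles) and EGFP+ minus ALL (squares) of the 14 tested member probes, with 95% confidence intervals from limma. Slc34a1, Slc34a3 and Pdzk1 lie between -5.35 and -4.67, Slc9a3r1 at -1.56 and -1.51, and the Kl and Fgfr1 probes between 1.09 and 2.34, while the intervals of A_52_P520507 and both Slc20a2 probes include 0.

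Between ALL and EGFP- the members lay close together. Slc34a1 differed by -0.05 (95% confidence interval -1.0 to 0.91), Slc34a3 by -0.07 (-0.67 to 0.52), Pdzk1 by -0.01 (-0.84 to 0.82) and Slc9a3r1 by -0.05 (-0.56 to 0.46). In level order, EGFP+ was thus lowest for these 4 genes, and no difference of theirs between ALL and EGFP- passed. The intervals rest on a spread shared by the 3 fractions and do not pair the mice. For Slc34a3 the SD was 0.66 in EGFP+, against 0.19 in ALL and 0.18 in EGFP- tubules. For Kl and Fgfr1 EGFP+ was highest. ALL was above EGFP- in 4 of 4 mice at both Kl probes and at Fgfr1 A_52_P552062. None of these differences passed in limma, with the mouse as a block or without it (adjusted p = 0.406, 0.904 and 1 with the block). Such a pattern was not particular to these probes. ALL was above EGFP- in every mouse at Slc20a1 A_52_P520507 too, and below it in every mouse at Slc34a3 and Slc20a2 A_52_P229044, also without a call.

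Sex was compared on the mean of the 3 fractions of each mouse, 2 males against 2 females. Of 12 member probes with a value on every array, 0 passed in limma and 2 had an unadjusted p under 0.05, where 0.956% of all probes passed and 19.1% had such a p. Slc9a3r1 had mouse means of 2.71 and 2.61 in males and 2.06 and 2.24 in females, a difference of 0.51 ± 0.13 (adjusted p = 0.189 in limma). The Kl probe A_52_P439358 had 5.98 and 6.0 in males and 5.58 and 5.71 in females, a difference of 0.35 ± 0.12 (adjusted p = 0.246). Neither probe had overlapping values between the sexes, but the same held for the other Kl probe and every Fgfr1 probe. The share of all probes without such overlap was not computed. Neither of the 2 differences passed after adjustment.

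Whether the EGFP+ minus EGFP- difference depended on sex was tested for 13 member probes, and 0 passed in limma, with 2 at an unadjusted p under 0.05. Over all 25585 probes 0 passed and 11.4% had such a p. For Slc20a1 A_51_P408631 the difference was -0.91 and -0.90 in males and -0.21 and -0.08 in females (adjusted p = 0.375). For Kl A_52_P112159 it was 1.86 and 2.13 in males and 2.73 and 2.64 in females (adjusted p = 0.408).

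The wider axis was read from lists of related genes, each gene by its brightest tested probe. Of 10 tested genes among 12 ligands, receptors and hormone axis genes, 3 were higher and 7 lower in EGFP+ than in EGFP- tubules, with a median difference of -1.52. Over all 17079 tested genes 32.1% were higher and 25.7% lower, with a median of 0.11. Fgf23 itself was well above background on at most 1 array at its 2 probes and Klb, the co-receptor for endocrine FGFs other than FGF23, on none, and neither was tested. Among the other FGF receptors Fgfr2 was higher, with a level of 0.86 ± 0.14 in EGFP+ and -0.89 ± 0.52 in EGFP- tubules and a difference of 1.75 ± 0.26 (3.36-fold, adjusted p = 0.000140). Fgfr3 was lower, by -3.12 ± 0.18, and Fgfr4 by -4.18 ± 0.24. Their other tested probes gave -3.95 and -2.32 for Fgfr3 and -3.28 and -2.53 for Fgfr4, and those of Fgfr2 gave 1.88 and 2.87. Against ALL all 4 lists of the wider axis gave the same counts of higher and lower genes as against EGFP-, where 30.2% of all genes were higher and 24.8% lower. So FGF receptor genes moved in both directions, and those higher in EGFP+ tubules were Fgfr1 and Fgfr2.

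Lctl, a member of the klotho family, was at -5.60 ± 1.86 in EGFP+ and -0.04 ± 0.22 in EGFP- tubules, a difference of -5.56 ± 0.69, with 2 of 4 EGFP+ arrays well above background. Vdr, the nuclear receptor for active vitamin D, was 2.32-fold higher at 5.83 ± 0.16 in EGFP+ against 4.62 ± 0.47 in EGFP- tubules (adjusted p = 0.00130). Cyp24a1, the enzyme that breaks active vitamin D down, was lower by -5.18 ± 0.98, with levels from -4.55 to -0.46 in EGFP+ and from 0.79 to 4.21 in EGFP- tubules. Its range within a fraction was wide, but the fractions did not overlap. Cyp27b1, the enzyme that makes active vitamin D, was lower by -1.37 ± 0.31, and Pth1r, the parathyroid hormone receptor, by -0.84 ± 0.26 (adjusted p = 0.0165). The other tested Cyp27b1 probe gave -2.15.

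Of 10 scaffold and membrane partner genes, all tested, 0 were higher and 6 lower, with a median of -1.35. Over all tested genes 32.1% were higher and 25.7% lower. Pdzd3, a further PDZ protein of the brush border, was lower by -5.43 ± 0.37 (adjusted p = 1.61e-07). Slc9a3, the apical sodium proton exchanger NHE3, was lower by -2.61 ± 0.23, and Slc9a3r2, which encodes NHERF2, by -2.34 ± 0.22. Pdzk1ip1, a small membrane protein that binds PDZK1, was lower by -1.71 ± 0.16, and Msn, which encodes the membrane to actin linker moesin, by -1.43 ± 0.21. Slc9a3r1 was thus 1 of several scaffold genes with a smaller deficit than Pdzk1.

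Of 12 tested genes among 13 targets and feedback regulators of FGF signalling, 6 were higher and 2 lower, while 4 did not pass, with a median of 0.42. The shares over all tested genes were 32.1% higher and 25.7% lower, so these counts alone are not a result about the list. Etv4, a transcription factor of the ETS family, was at -0.99 ± 0.15 in EGFP+ tubules and above background on 0 of 4 EGFP- arrays, at least 20.8-fold higher (adjusted p = 6.3e-08). The lower limit sets the EGFP+ mean against the lowest signals well above background, or the dim probe's own where that is higher. For Etv4 the probe's own signal was the higher, so the limit equals the fitted fold. Il17rd, a membrane inhibitor of FGF signalling, was higher by 2.14 ± 0.10 at its brightest probe, while its other tested probes gave 0.26 and 1.44. Spred1, an inhibitor of the MAP kinase cascade, was higher by 1.27 ± 0.09. Etv1, another ETS factor, was lower by -2.41 ± 0.41, and the feedback inhibitor Spry4 by -2.26 ± 0.75, with 1 of 4 EGFP+ arrays well above background. Spry4 levels ran from -7.34 to -3.63 in EGFP+ and from -4.91 to -3.15 in EGFP- tubules, so its fractions overlapped. Etv4 was also the only gene of the 4 lists that passed between ALL and EGFP- in limma, where 1.32% of all genes passed. It was at least 3.24-fold higher in ALL (limma adjusted p = 0.00730), a limit that again equals the fitted fold. The list therefore had genes on both sides.

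Of 15 tested genes among 17 other genes of phosphate transport and metabolism, 3 were higher and 8 lower, while 4 did not pass, with a median of -0.73. Over all tested genes 32.1% were higher and 25.7% lower. Slc17a3 and Slc17a1, organic anion carriers first named as sodium phosphate cotransporters, were lower by -5.16 ± 0.94 and -4.78 ± 0.42. Alpl, the tissue-nonspecific alkaline phosphatase, was lower by -5.06 ± 0.24 (adjusted p = 9.75e-09). Slc37a4, the glucose 6-phosphate carrier, was lower by -3.47 ± 0.33. Stc2, which encodes the hormone stanniocalcin 2, was at least 9.23-fold lower, with 0 of 4 EGFP+ arrays well above background. The proximal tubule markers moved the same way as these genes, and their part in the differences was not tested.

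**Figure D4:**
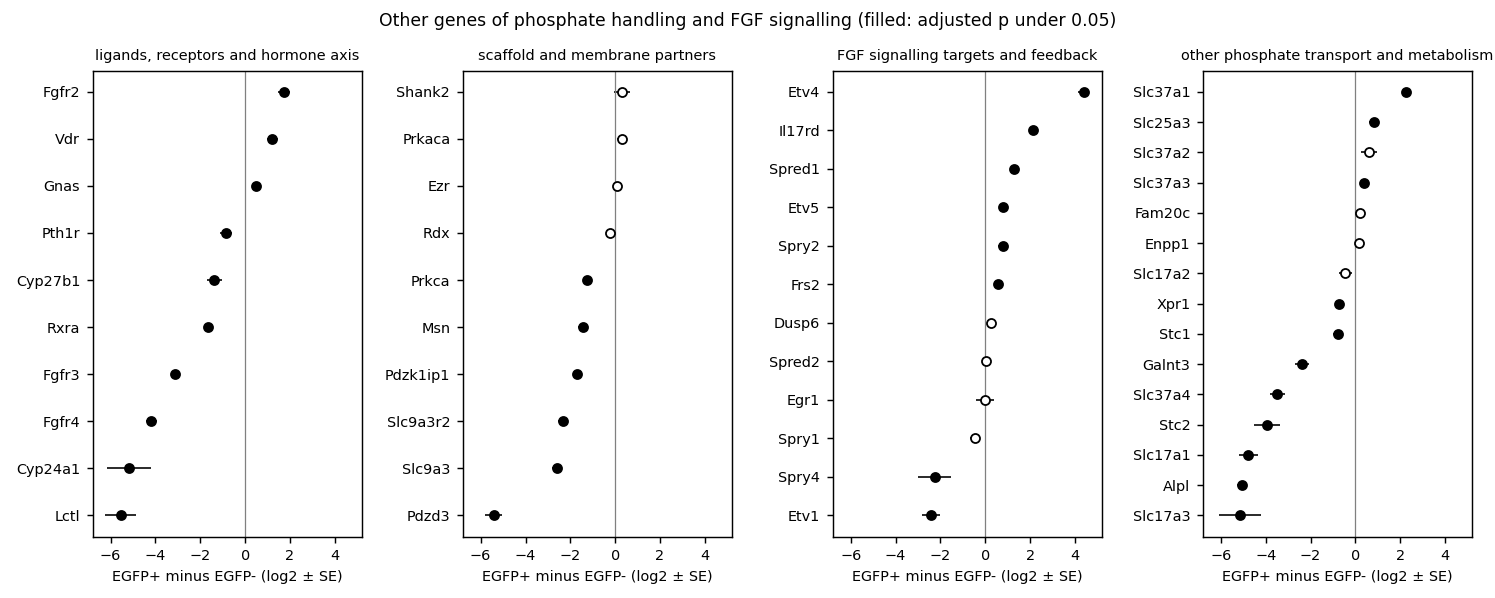
EGFP+ minus EGFP- difference (log2 ± SE) of each tested gene of the 4 related lists, with filled symbols for an adjusted p under 0.05 in limma. Scaffold partners have 6 lower and 0 higher genes, FGF targets 6 higher and 2 lower, where 32.1% of all tested genes were higher and 25.7% lower. For Etv4 (EGFP-), Stc2 and Slc17a2 (EGFP+), dim on all 4 arrays of that fraction, the plotted value is the fitted one.

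The promoters of the lower genes Slc34a1 and Pdzk1, whose levels moved alike, are shown from RefSeq (assembly GRCm38.p6, 300 bases around the start). They were searched on both strands for GTTAAT, a half-site of the HNF1 motif, CAAAGTCCA, a core of the HNF4 motif, and the TATAAA and CCAAT boxes. HNF1 and HNF4 factors are known regulators of proximal tubule genes. Capitals mark all matches. The Slc34a1 promoter at chr13:55399398-55399697 on the plus strand held 2 HNF1 half-sites and 1 TATAAA. At least 1 match of each was found in 7.10% and 13.6% of 32851 promoters. The first listed Pdzk1 promoter at chr3:96829815-96830114, also on the plus strand, held 1 HNF4 core and 2 CCAAT boxes. At least 1 match of each was found in 0.475% and 37.4% of promoters. The second listed Pdzk1 promoter, at chr3:96831921-96832220, held 0 HNF4 cores and 1 CCAAT box. The promoters of Slc34a3 and Slc9a3r1, which were also lower, held 0 HNF1 half-sites and 0 HNF4 cores. AGTTCA repeated after a spacer of 3 bases, a form of the vitamin D receptor motif, was sought too and found in 0 promoters of the table. A match is a description of letters and not of binding.
Slc34a1 promoter: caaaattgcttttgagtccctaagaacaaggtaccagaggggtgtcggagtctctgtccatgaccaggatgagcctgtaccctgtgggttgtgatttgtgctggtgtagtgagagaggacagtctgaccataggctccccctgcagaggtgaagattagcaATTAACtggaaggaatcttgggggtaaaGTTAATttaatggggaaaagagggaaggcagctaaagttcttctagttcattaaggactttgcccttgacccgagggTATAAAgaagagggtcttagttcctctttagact
Pdzk1 promoter: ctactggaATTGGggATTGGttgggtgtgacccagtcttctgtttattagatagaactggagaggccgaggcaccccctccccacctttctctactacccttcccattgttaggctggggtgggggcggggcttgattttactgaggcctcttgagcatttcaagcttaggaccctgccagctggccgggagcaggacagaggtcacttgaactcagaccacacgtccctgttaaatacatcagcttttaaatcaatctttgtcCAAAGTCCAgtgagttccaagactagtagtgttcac

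Genes with the profile most like a member were ranked by the root mean square difference of levels after centring each probe on its own mean. For Slc34a1, over the 10 arrays with a value, the closest was Pdzk1, at 0.10, followed by Fam102b at 0.11 and Nfia at 0.12. For the Kl probe A_52_P439358, over 12 arrays, they were Aig1 at 0.11, Tmem116 at 0.12 and Galnt18 at 0.12. For Slc9a3r1 they were Lrrk2 at 0.08, Eefsec at 0.10 and Cdcp1 at 0.10. Of these 3 members, Slc34a1 had another member as its nearest gene. The other members were not ranked in this way.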

How the data were processed

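Expression was measured in 12 samples (EGFP+, ALL and EGFP- tubules of 4 mice) on Agilent arrays of design 014868. Per the file headers, Feature Extraction 9.5.3.1 made the deposited values: per spot a background-corrected processed signal, a mean signal and a local background, all intensities on a linear scale. Per the labels, total RNA was amplified and labelled with Cy3. Array scaling and every later step was computed here; a deposited value table was not used. Spots with an outlier mark were left out, spots of one probe averaged, and log2 values set relative to the array's 75th percentile. The 25829 probes that rose well above background on 4 or more of the 12 arrays were tested with limma 3.58.1 in R 4.3.3 (with statmod 1.5.0), 1 coefficient per fraction, with Benjamini-Hochberg adjustment over all tested probes and a threshold of 0.05; 509 of them lacked a value on at least 1 array. Sex was tested on mouse means and on mouse differences. The number of arrays limits the precision. Errors are SE for differences and SD for levels. The steps were checked on simulated data.

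The members and gene lists were chosen with earlier results of these data known. All member probes are named; from each list the 5 tested genes with the largest EGFP+ minus EGFP- difference are named, beside direct partners of the members. The comparison of probe pairs was chosen after seeing the data. Replicate numbers pair the samples, since the labels give the same mouse; deviations from the fraction means of the same mouse correlated across 25320 probes by 0.225 to 0.808. Gene names came from the accession for 24375 probes, from a current symbol for 6301 and from an older symbol for 2426, while 8072 kept the name in the file. Alternatives were normexp background (offset 50), quantile normalization, median centring, other filters, outlier spots kept, each mouse left out, and mouse or slide (1 scan each) as a block.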

Additional observations from a re-analysis of the deposited data

Results flagged for a closer look

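Among the 45 sets of 4 arrays (1 member probe in 1 fraction), 4 held an array far from the rest, and chance gives about 1 in 20. The Kl probe A_52_P112159 was at 2.26 in EGFP+ tubules of mouse 3, with the other mice from 2.12 to 2.13, a gap of small size in a narrow group. In EGFP- tubules of mouse 4, Fgfr1 was at -2.84 by A_52_P668810, with the other mice from -1.35 to -1.30. By the overlapping probe A_51_P109469 it was at -3.22, with the others from -1.73 to -1.66. By A_52_P136162 it was at -5.26, with the others from -3.82 to -3.61. The fourth Fgfr1 probe, A_52_P552062, was at -3.95 in the same array, within the range of the other mice. That array and the ALL array of mouse 4 were the dimmest of the 12, and the part of this in the values was not tested.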

How the results depend on the processing

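The EGFP+ differences of Slc34a1, Slc34a3, Pdzk1, Slc9a3r1 and both Kl probes kept direction and call against EGFP- and against ALL under every fitted alternative. The calls that changed, of Slc20a1 A_51_P408631 and of Fgfr1, stand in the report. The number of probes past the threshold with mouse as a replicate block was 16632 for EGFP+ against EGFP- (14633 without), 16080 against ALL (13932 without) and 398 for ALL against EGFP- (279 without); the block changed no member's call beyond Slc20a1. With slide as a block the counts were 15021, 14586 and 258 in the same order. With normexp, 7859 probes passed for EGFP+ against ALL, 184 for ALL against EGFP- and 4700 between the sexes (242 in the main setting). Between the sexes, median centring gave 704 and no filter 50. For the dependence of the EGFP+ difference on sex, quantile normalization gave 11 and median centring 18, against 0. With each mouse left out the counts ran from 12435 to 13996, from 11506 to 13032 and from 103 to 330 for the fraction comparisons in the same order, from 27 to 51 between the sexes, and stayed at 0 for the dependence on sex. Median centring moved the median of all probes for EGFP+ against EGFP- from 0.14 to 0.30, and of the EGFP+ against ALL calls 67.7% were then higher, in place of 57.6%. Small differences that had not passed changed sign, and the cause was not tested. With normexp this held for Slc20a1 A_52_P520507 against ALL (0.11), Slc20a2 A_52_P504236 against EGFP- (0.18) and, for ALL against EGFP-, Slc20a2 A_52_P504236 (0.088), Fgfr1 A_52_P668810 (0.19) and A_52_P136162 (0.67). With quantile normalization it held for Slc20a1 A_52_P520507 against ALL (0.14), Slc20a2 A_52_P504236 against EGFP- (0.052) and Slc34a3 in ALL against EGFP- (0.022). With median centring it held for Slc20a1 A_52_P520507 against ALL (0.15), Slc20a2 A_52_P229044 (0.068) and A_52_P504236 (0.15) against EGFP-, and Fgfr1 A_51_P109469 in ALL against EGFP- (-0.0078). With slide as a block the ALL against EGFP- differences were 0.21 for Slc34a1, 0.0082 for Slc20a1 A_51_P408631, -0.19 for Fgfr1 A_51_P109469 and 0.085 for Pdzk1, and with the mouse block 0.11 for Pdzk1. With each mouse left out, EGFP+ minus EGFP- ran from -0.042 to 0.19 for Slc20a1 A_52_P520507, from -0.20 to 0.090 for Slc20a2 A_52_P229044 and from -0.14 to 0.21 for A_52_P504236. EGFP+ minus ALL ran from -0.11 to 0.030, from -0.00042 to 0.25 and from -0.097 to 0.18 for the same probes. ALL minus EGFP- ran from -0.13 to 0.019 for Slc34a1, from -0.067 to 0.048 for Slc20a1 A_51_P408631, from -0.20 to 0.031 for Slc20a2 A_52_P504236, from -0.11 to 0.011 for Fgfr1 A_52_P668810, from -0.039 to 0.080 for A_51_P109469, from -0.21 to 0.033 for A_52_P136162 and from -0.10 to 0.099 for Pdzk1. Signal over background limits the Slc34a2 probes and, in ALL and EGFP-, Fgfr1 A_52_P136162.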
